A study of Mus musculus with 7 samples.

Results

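Open chromatin in mouse embryonic fibroblasts (MEFs) was compared between day 1 and day 3 of doxycycline, an interval that falls within the early phase of reprogramming. Every ATAC-seq peak of the day 1 library was matched with the day 3 library by an overlap of at least 1 bp, in mm10 coordinates. A day 1 peak with no day 3 peak over it was taken as lost, a day 3 peak with no day 1 peak under it as gained, and the others as kept. Of 45709 day 1 peaks, 12761 (27.9%) were lost, and of 48087 day 3 peaks, 15376 (32.0%) were gained. These 93796 peaks were among 293147 in the whole series. ATAC-seq marks open DNA by the insertions of a transposase, and a peak is a stretch with more insertions than its surroundings.

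The MEFs of both time-points came from a cross of B6;129S4 mice with the allele Col1a1tm1(tetO-Pou5f1,-Klf4,-Sox2,-Myc)Hoch and B6.Cg mice with the allele Gt(ROSA)26Sortm1(rtTA*M2)Jae, both labelled /J. They carried a tetO cassette of the 4 factors Oct4, Klf4, Sox2 and c-Myc (OSKM) in the *Col1a1* locus and the rtTA*M2 activator in the *ROSA26* locus. Doxycycline at 2 ug per mL switched the cassette on for 1 day or 3 days. The other libraries, used here to place the regions in time, were MEFs of this genotype without doxycycline (day 0) or with it for 2, 6 or 9 days, and Bruce-4 embryonic stem cells (ESCs), listed with the same genotype and untreated. Each time-point had 1 library of the whole culture, so there is no replicate error and no p-value. Intervals in brackets are 95% intervals for the counting of peaks alone. The 7 libraries held 27074 to 61241 peaks with median widths of 364 to 394 bp, and their files give no reads per peak, so depth is unknown.

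OSKM turn fibroblasts towards pluripotency over many days. In the first days the fibroblast programme is dismantled and cells pass through a mesenchymal-to-epithelial transition. The fibroblast programme is held in part by AP-1, the dimers of Fos and Jun proteins that bind many fibroblast enhancers. Snail and Zeb repressors bind the E-box CAGGTG and silence epithelial genes such as *Cdh1*, which encodes E-cadherin. Oct4 recognises the octamer, Sox2 a short Sox motif, Klf4 a GC-rich box and c-Myc another E-box, CACGTG. CTCF marks boundaries between chromatin loops.

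Of the 17 motifs searched, the Snail/Zeb E-box had the largest difference in percentage points between gained and lost peaks. Among the central 200 bp of the peaks, a match to CAGGTG on either strand was found in 1980 of 15362 gained peaks (12.9%, 12.4 to 13.4) and in 1110 of 12753 lost peaks (8.70%, 8.22 to 9.21). The windows below are the central 200 bp of the 3 widest gained and the 3 widest lost peaks that hold this E-box, lie more than 1000 bp from any annotated transcription start site (TSS) and overlap no exon, on the plus strand of mm10, with the E-box in capitals (CACCTG where it lies on the minus strand).
Gained peak 47162 bp upstream of the Actr3 start, chr1:125482789-125482988: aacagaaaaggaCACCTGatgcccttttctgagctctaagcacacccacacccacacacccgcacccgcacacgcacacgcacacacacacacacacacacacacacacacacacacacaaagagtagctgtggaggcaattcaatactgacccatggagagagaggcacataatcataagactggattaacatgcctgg
Gained peak 68777 bp downstream of the Galnt2 start, chr8:124300068-124300267: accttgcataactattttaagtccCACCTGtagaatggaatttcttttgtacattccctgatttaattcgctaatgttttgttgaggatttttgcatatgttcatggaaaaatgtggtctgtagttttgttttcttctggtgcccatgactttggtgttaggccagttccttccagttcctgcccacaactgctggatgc
Gained peak 44984 bp upstream of the Gm5148 start, chr3:37769374-37769573: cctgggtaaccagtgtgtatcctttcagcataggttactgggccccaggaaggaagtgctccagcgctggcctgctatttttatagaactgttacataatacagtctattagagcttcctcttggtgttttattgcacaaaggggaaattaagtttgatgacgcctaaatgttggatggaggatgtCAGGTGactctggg
Lost peak 14902 bp downstream of the Maco1 start, chr4:134838343-134838542: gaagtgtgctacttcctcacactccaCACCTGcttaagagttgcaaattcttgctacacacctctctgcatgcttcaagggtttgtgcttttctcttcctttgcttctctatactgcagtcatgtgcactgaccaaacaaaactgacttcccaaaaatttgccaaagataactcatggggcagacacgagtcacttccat
Lost peak 53330 bp downstream of the Pdk4 start, chr6:5442879-5443078: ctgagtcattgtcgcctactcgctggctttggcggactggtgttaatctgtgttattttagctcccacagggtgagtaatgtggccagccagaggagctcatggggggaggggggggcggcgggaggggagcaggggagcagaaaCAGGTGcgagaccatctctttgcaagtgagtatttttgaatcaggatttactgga
Lost peak 9829 bp downstream of the Acsl1 start, chr8:46480766-46480965: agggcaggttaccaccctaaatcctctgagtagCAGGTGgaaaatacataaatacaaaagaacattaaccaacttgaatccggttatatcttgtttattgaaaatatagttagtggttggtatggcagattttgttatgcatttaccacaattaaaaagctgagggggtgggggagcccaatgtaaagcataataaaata
All 3 of these gained peaks also had a peak on days 2, 6 and 9 and none in ESCs. The 3 lost peaks had a peak on day 2 and on day 9.

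Lost peaks in turn held AP-1 sites more often than gained peaks did. The windows of the 3 widest lost peaks with an AP-1 match, chosen after the values were seen and otherwise by the same rule, are shown with the match TGANTCA in capitals. N stands for any base. The pattern and all AP-1 shares given here therefore also take in TGAATCA and TGATTCA, as in the *Eya4* and *Ccdc115* windows, besides TGACTCA.
Lost peak 173290 bp downstream of the Eya4 start, chr10:23177396-23177595: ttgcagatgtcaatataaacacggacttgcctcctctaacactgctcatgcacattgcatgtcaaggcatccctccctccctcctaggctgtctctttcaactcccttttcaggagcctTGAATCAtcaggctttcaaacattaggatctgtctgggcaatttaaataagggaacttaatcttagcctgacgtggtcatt
Lost peak 50099 bp downstream of the Ccdc115 start, chr1:34389473-34389672: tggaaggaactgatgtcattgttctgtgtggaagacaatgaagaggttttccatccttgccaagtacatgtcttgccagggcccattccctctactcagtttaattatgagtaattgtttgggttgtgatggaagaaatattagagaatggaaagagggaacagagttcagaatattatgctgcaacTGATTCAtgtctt
Lost peak 11899 bp downstream of the Rnf130 start, chr11:50037145-50037344: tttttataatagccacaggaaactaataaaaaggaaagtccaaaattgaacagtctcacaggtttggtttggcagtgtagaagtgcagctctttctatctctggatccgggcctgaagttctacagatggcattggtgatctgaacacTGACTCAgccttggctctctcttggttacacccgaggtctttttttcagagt
The peaks inside *Eya4*, which encodes a transcriptional coactivator and phosphatase, and downstream of *Ccdc115* had a day 0 peak and none on days 2, 6 and 9 or in ESCs. The lost peak at *Rnf130* differed, with a day 2 peak and none on days 0, 6 and 9 or in ESCs.

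CTCF sites were more frequent in gained peaks. Below are the windows of the 2 widest gained peaks with a match to the CTCF core, again chosen after the values were seen, with the core in capitals.
Gained peak 65849 bp upstream of the Zbtb38 start, chr9:96818580-96818779: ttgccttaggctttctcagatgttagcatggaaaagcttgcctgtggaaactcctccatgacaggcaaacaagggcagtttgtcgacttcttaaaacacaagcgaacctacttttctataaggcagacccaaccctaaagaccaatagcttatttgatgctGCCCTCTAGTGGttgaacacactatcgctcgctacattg
Gained peak 28336 bp downstream of the Grifin start, chr5:140536635-140536834: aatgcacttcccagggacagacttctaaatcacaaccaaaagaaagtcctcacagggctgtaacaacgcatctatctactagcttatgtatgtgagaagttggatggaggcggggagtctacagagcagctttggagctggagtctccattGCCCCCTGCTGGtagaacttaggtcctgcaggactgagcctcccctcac
Both had a peak on day 0, on day 6 and on day 9, and none on day 2 or in ESCs.

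The lost and gained peaks were for the most part the narrow ones. Lost peaks made up 27.9% (27.5 to 28.3) of the day 1 library and gained peaks 32.0% (31.6 to 32.4) of the day 3 library. The median width was 225 bp for lost peaks, 226 bp for gained peaks and 519 bp for the day 3 peaks that were kept. A width of 200 bp, the smallest in these files, was found in 33.2% of lost and 30.2% of gained peaks, against 6.85% of kept day 3 peaks. Among peaks of 200 bp, 62.0% of those on day 1 were lost and 67.5% of those on day 3 were gained. Among peaks of 500 bp to under 700 bp, the shares were 4.32% (514 peaks) and 6.50% (846 peaks). At 700 bp or more, 17 of 4899 day 1 peaks were lost and 38 of 5471 day 3 peaks were gained. In every width class the gained share was above the lost share. In a culture measured as a whole, fewer cells with a region open and less opening per cell cannot be told apart.

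**Figure D1:**
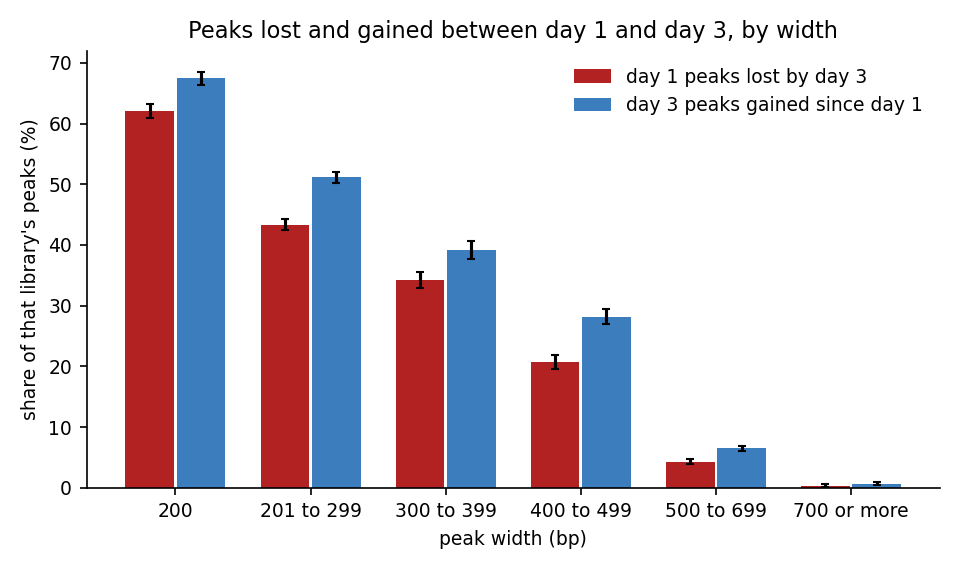
Share of day 1 peaks lost by day 3 (red) and of day 3 peaks gained since day 1 (blue), in percent of that library's peaks of each width in bp, with exact 95% intervals. Both shares are lower for wider peaks, from 62.0% and 67.5% at 200 bp to 0.347% and 0.695% at 700 bp or more.

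Kept regions were close to each other in extent. In 28195 cases 1 day 1 peak met 1 day 3 peak, and the day 3 peak was 1.02 times as wide in the median (10th to 90th percentile 0.662 to 1.74). At least 2-fold wider day 3 peaks numbered 1855 (6.58%), and at least 2-fold wider day 1 peaks numbered 1278 (4.53%). The largest ratio was found 5937 bp upstream of *Socs3*, which encodes an inhibitor of JAK/STAT cytokine signalling: a peak of 235 bp on day 1 (chr11:117975655-117975889) was 1054 bp wide on day 3, a ratio of 4.49. This region had no peak on day 0 or day 2 and had one on days 6 and 9 and in ESCs. The next were at the start of *Rhou*, a small GTPase gene (203 to 889 bp), at *Pank4* (237 to 940 bp) and inside *Nsl1*, a kinetochore gene (211 to 823 bp). In the other direction a peak of 859 bp far from any gene start, 372778 bp from *Gm9747*, was 200 bp wide on day 3. A peak of 1190 bp inside *Nsmce2*, a gene of the SMC5/6 complex, was 282 bp wide on day 3, and peaks near *Stk17b* and *Ldlrad4* went from 823 to 200 bp and from 849 to 208 bp.

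The widest lost and gained peaks differed in their history. The widest lost peak, 881 bp (chr7:130288674-130289554), lay in an intron 231255 bp from the start of *Ate1* and was present on day 0 and in none of the later libraries. The next, 797 bp, lay 131478 bp from *4933402D24Rik* and was called again on days 6 and 9. The lost peak in *Eya4* (795 bp) had the pattern of the widest. The lost peak at the start of *Hecw1*, a ubiquitin ligase gene, was 780 bp wide and was present in each of the other libraries except day 2. The lost peak nearest to *Dhx35* (779 bp) was seen on day 1 and in no other library.

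Among the gained peaks, the widest was 876 bp (chr5:142901614-142902489), 4702 bp downstream of the start of *Actb*, the beta-actin gene, and it was shared with day 9 alone. A gained peak of 871 bp lay 133425 bp from *Rnd3*, which encodes an atypical small GTPase that counters stress fibres, and it stayed on days 6 and 9. The gained peak inside *1700064H15Rik* (859 bp) was present on days 2, 6 and 9 and absent on day 0 and in ESCs. The gained peaks at *Zfp184* (855 bp) and at a start site of *Plekhg3* (846 bp) were called in each of the other 5 libraries, so that day 1 was the library that lacked them. The gained peak in an intron of *Tns1*, a focal adhesion gene (843 bp), was present on days 0, 6 and 9.

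Most of the lost peaks were already absent on day 2, and most of the gained peaks were not yet called then. Of the lost peaks, 83.2% (82.5 to 83.8) had no day 2 peak. Of the gained peaks, 18.9% (18.3 to 19.5) had a day 2 peak. The day 2 library had 33174 peaks, fewer than either neighbour, and 26.8% of the day 1 peaks that were kept on day 3 were not called on day 2 either. Width entered this count too. Among peaks of 500 bp to under 700 bp, a day 2 peak covered 40.1% of lost, 46.3% of gained and 89.8% of kept day 3 peaks, whereas among peaks of 200 bp the shares were 10.3%, 9.92% and 32.8%. Regions merged over the 3 days numbered 61904, of which 23614 were called on all 3 days, 10609 on day 1 alone, 12464 on day 3 alone, 1799 on days 1 and 2, 2483 on days 2 and 3 and 7680 on days 1 and 3 without day 2.

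Gained peaks were found more often than lost peaks in the later libraries, and lost peaks somewhat more often in untreated MEFs. A day 0 peak was present at 39.3% (38.5 to 40.2) of lost and 35.6% (34.8 to 36.4) of gained peaks. A day 6 peak was present at 25.5% (24.8 to 26.3) of lost and 39.5% (38.7 to 40.2) of gained peaks. On day 9 the shares were 13.8% and 24.3%, and in ESCs 6.13% and 10.2%. Kept day 3 peaks stood far above both classes in each library, with 69.3% on day 0, 81.9% on day 6 and 38.6% in ESCs. Gained peaks with a day 2 peak were also on day 6 in 64.0% of cases, against 33.7% for gained peaks without one. Of the lost peaks 40.2% and of the gained peaks 32.6% were called in none of the other 5 libraries, against 5.21% of kept day 3 peaks, and the median width of such peaks was 214 bp, 208 bp and 245 bp.

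**Figure D2:**
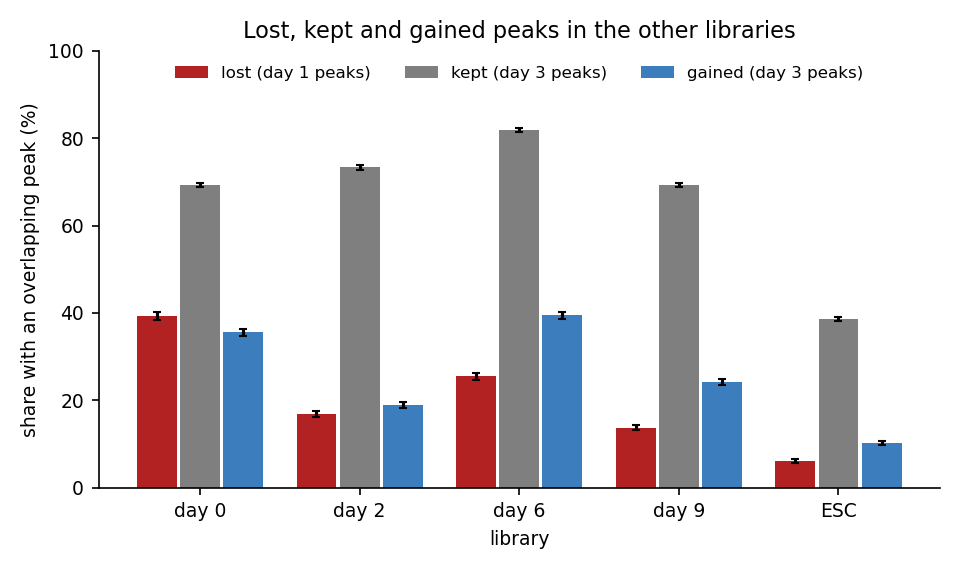
Share of lost (red), kept (grey) and gained (blue) peaks with an overlapping peak in each of the other 5 libraries, in percent, with exact 95% intervals. On day 6 the gained peaks reach 39.5% and the lost peaks 25.5%, and kept peaks lie above both in every library.

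Lost and gained peaks lay away from gene starts. A TSS within 1000 bp was found for 16.7% (16.0 to 17.3) of lost, 18.1% (17.5 to 18.8) of gained and 40.8% (40.2 to 41.3) of kept day 3 peaks. The gap varied with width. Among peaks of 200 bp the shares were 14.8%, 14.9% and 19.7%, and among peaks of 500 bp to under 700 bp 16.3%, 20.2% and 45.6%. The median distance to a TSS was 9930 bp for lost, 8761 bp for gained and 3633 bp for kept day 3 peaks. Introns held 44.1% of lost and 41.5% of gained peaks, and 35.6% and 36.7% were intergenic, against 31.3% and 25.6% of kept day 3 peaks. Lost peaks took between 24.1% (chromosome 19) and 30.7% of the day 1 peaks of a chromosome, and gained peaks between 30.2% (chromosome 19) and 34.8% (X) of its day 3 peaks, with Y, which had 1 peak in all, left aside. The median GC content of the central 200 bp was 46% in lost peaks, 47.5% in gained peaks, 52% in kept day 3 peaks and 41.5% in a grid of 132361 genome windows of the same length, which serves as the background for motifs.

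The E-box share set gained peaks apart from lost peaks by 4.19 percentage points (3.46 to 4.90). Kept day 3 peaks, at 8.83%, were near the lost peaks, and the genome grid, at 11.8%, was nearer the gained peaks. Among peaks of at least 300 bp the match was found in 13.2% of gained and 6.39% of lost peaks, a difference of 6.84 points (5.50 to 8.17). When narrower peaks were left out of every library before matching, so that more wide peaks counted as lost or gained, the difference was 4.50 points (3.57 to 5.42). More than 1000 bp from a TSS the shares were 12.2% and 7.81%. Gained peaks that also had an ESC peak held it in 16.6% (14.8 to 18.5) of cases and lost peaks with an ESC peak in 16.1% (13.6 to 18.9), and these intervals overlap. Because the E-box was picked from a list of known motifs, all 2080 distinct hexamers, a hexamer and its reverse complement counted as 1, were ranked as well, a step added after the data were seen. CAGGTG had the largest excess in gained over lost peaks of the 2080, in all peaks, in peaks of at least 300 bp and in peaks more than 1000 bp from a TSS. The hexamers that came next in all peaks, CCTGGC (3.20 points) and CTGGGC (3.06 points), are rich in G and C. Those at the other end were rich in A and T, with AAATTA the lowest at -2.71 points.

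AP-1 matches pointed the other way. TGANTCA was found in 11.6% (11.1 to 12.1) of gained and 13.9% (13.3 to 14.5) of lost peaks, a difference of -2.28 points (-3.06 to -1.49), against 6.00% of the genome grid and 15.5% of kept day 3 peaks. Among peaks of at least 300 bp the shares were 16.7% and 22.2%, and in that width class the hexamer with the largest excess in lost peaks was GACTCA, part of the AP-1 site, at -4.72 points. Lost peaks with a day 0 peak held AP-1 in 18.6% of cases and those without in 10.8%. Gained peaks with a day 0 peak held it in 14.5% and those without in 10.0%.

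The sites of the reprogramming factors did not set the classes apart at this count. The octamer ATGCAAAT was found in 2.25% of gained and 2.20% of lost peaks (difference 0.06 points, -0.29 to 0.40), against 1.76% of the grid. The Sox motif CATTGT was found in 12.6% and 12.8% (difference -0.24 points, -1.02 to 0.54), near the grid at 12.5%. The Klf box GGGNGTGG was found in 10.1% and 9.45% (difference 0.67 points, -0.03 to 1.36), against 4.51% of the grid and 13.2% of kept day 3 peaks. The Myc E-box CACGTG was found in 2.94% and 2.57% (difference 0.37 points, -0.02 to 0.75). The composite Oct-Sox site was found in 3 gained peaks and in 0 of 12753 lost peaks, which allows a share of up to 0.0235% at 3 counts of the total (exact upper limit 0.0289%). The pattern used was rare elsewhere too, in 6 of 32678 kept day 3 peaks and 2 of 132361 grid windows. Such low counts cannot compare the classes.

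Of the other factors, Tead sites (GGAATG), bound by the partners of Yap, were found in 14.8% of gained and 13.3% of lost peaks (difference 1.47 points, 0.66 to 2.28). CTCF sites were found in 1.43% of gained and 0.698% of lost peaks (difference 0.73 points, 0.50 to 0.97), and among peaks of at least 300 bp in 4.01% and 1.64%. The Tfap2 motif GCCNNNGGC (difference 0.75 points, 0.17 to 1.33) and the Ets motif CCGGAAG (0.40 points, 0.15 to 0.65) were also more frequent in gained peaks. The Runx motif TGTGGTT was more frequent in lost peaks (-0.60 points, -1.14 to -0.07). So was the Gata motif AGATAA (-0.99 points, -1.64 to -0.33). For Cebp (TTGCNNAA), Esrrb (TCAAGGTCA), Grhl (AACCNGTT) and the CArG box the interval of the difference included 0.

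**Figure D3:**
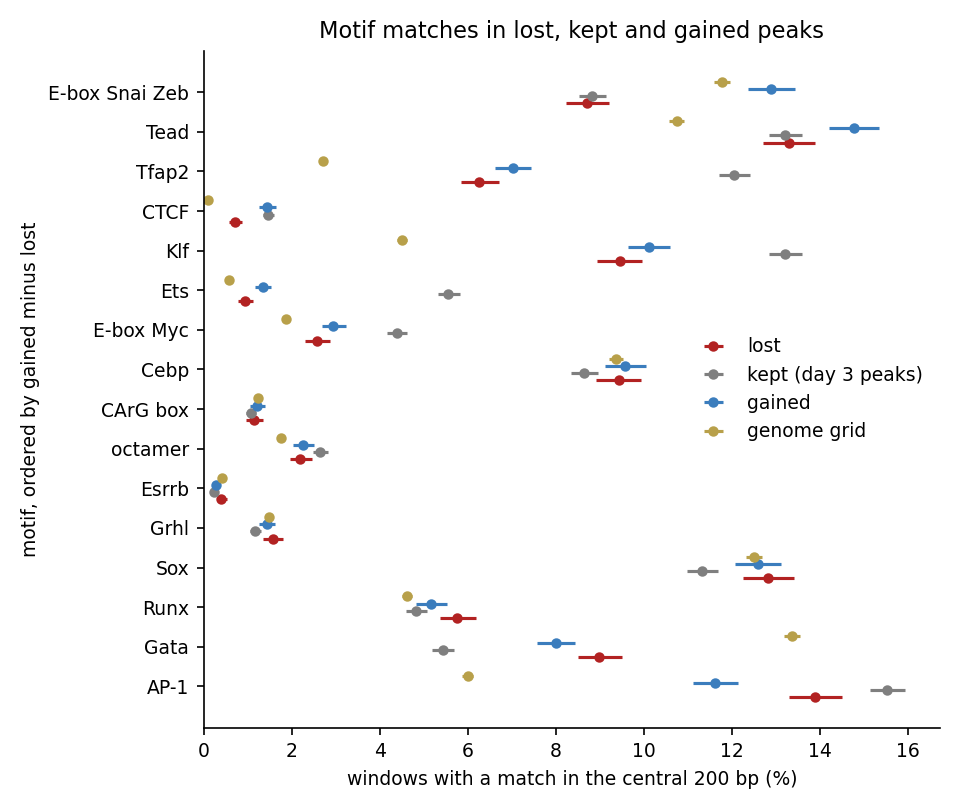
Share of central 200-bp windows with a match to each motif, in percent with exact 95% intervals, for lost (red), kept day 3 (grey) and gained (blue) peaks and for the genome grid (yellow), ordered by gained minus lost, with the rare Oct-Sox composite left out. The Snail/Zeb E-box (12.9% gained, 8.70% lost) and AP-1 (11.6% gained, 13.9% lost) sit at the ends of the order.

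The shares of these motifs also differed between the whole peak lists of the libraries. The Snail/Zeb E-box was found in 8.69% of all day 1 peaks, 9.67% of day 2 peaks and 10.1% of day 3 peaks. Day 0 stood at 8.65%, day 6 at 11.0%, day 9 at 11.3% and ESCs at 19.7%. AP-1 was found in 15.0% of day 1 peaks, 12.6% of day 2 peaks and 14.3% of day 3 peaks. Untreated MEFs stood at 19.4%, day 6 at 11.1%, day 9 at 9.76% and ESCs at 5.37%. The step from day 1 to day 3 was thus a small part of the distance between MEFs and ESCs for both motifs, and for AP-1 the day 2 value lay below that of day 3.

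**Figure D4:**
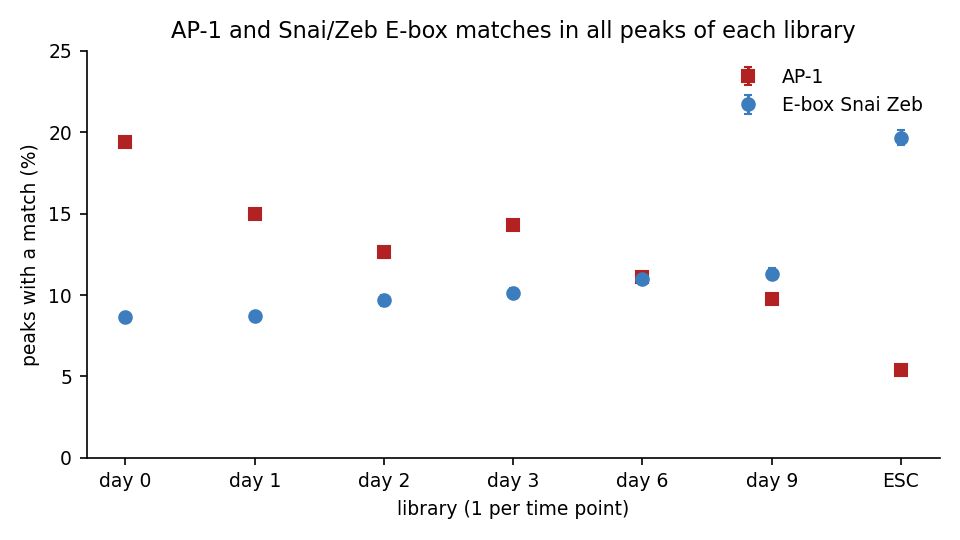
Share of all peaks of each library whose central 200 bp hold an AP-1 match (red squares) or a Snail/Zeb E-box (blue circles), in percent with exact 95% intervals, 1 library per time-point. The E-box goes from 8.69% on day 1 to 10.1% on day 3 and 19.7% in ESCs, and AP-1 from 15.0% to 14.3% and 5.37%.

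Peaks were next assigned to the protein-coding gene with the nearest start within 1000 kb. Of 21911 genes, 8134 had at least 1 gained peak and 6971 at least 1 lost peak. Genes with more gained than lost peaks numbered 5225 (23.8%), and genes with more lost than gained peaks numbered 3677 (16.8%). A peak within 1000 bp of a start of the gene, here called a promoter peak, was present on both days for 11609 genes, on day 3 and not on day 1 for 752 (3.43%) and on day 1 and not on day 3 for 607 (2.77%). In the lists below, chosen with earlier results of these data known, counts are to be read against these shares.

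The epithelial list, 28 genes of junctions, keratins and their regulators, had 15 members with more gained than lost peaks and 2 with more lost, and the other 11 were equal. Over all genes these shares were the 23.8% and 16.8% given above. Together the 28 genes had 27 gained and 13 lost peaks, which were 40.3% of their day 3 peaks and 24.5% of their day 1 peaks, beside 32.0% and 27.9% over all peaks. Of the 27 gained peaks, 11 were present on day 0, 9 on day 2 and 14 on day 6, where the shares over all gained peaks were 35.6%, 18.9% and 39.5%. Of the 13 lost peaks, 2 were present on day 0, against 39.3% of all lost peaks. *Elf3*, an epithelial Ets factor gene, had 3 gained peaks and none lost. Of these, 1 of 227 bp and 1 of 200 bp lay 478 and 871 bp upstream of its start, where day 1 had no peak. Both were also present on days 0 and 9. *Cldn4*, a claudin of tight junctions, had 3 gained peaks of 280 to 567 bp, all present on day 0. At *Cdh1* the gained peak was 671 bp wide (chr8:106619411-106620081), 16395 bp downstream of the start, and was called in each library except day 1. *Esrp1*, the epithelial splicing regulator, gained a peak of 449 bp at a start site that was present on days 2 and 6 and in ESCs and absent on day 0. *Lama5*, a laminin chain gene, gained a promoter peak of 508 bp. *Krt19* gained one of 340 bp beside a promoter peak called on both days. *Krt18* gained 2 narrow peaks, seen in no other library, 10027 and 9746 bp upstream.

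*Grhl3* and *Cdh3* were the 2 epithelial members with more lost peaks. *Grhl3*, a grainyhead factor of epidermis, lost 4 peaks of 200 to 305 bp, including its promoter peak of 203 bp. *Cdh3*, the P-cadherin gene, lost a promoter peak of 200 bp and another of 200 bp, neither seen in any other library. *Krt8* lost its 344-bp promoter peak and gained one of 222 bp beside it, at 1144 and 1492 bp from the annotated gene start. With peaks at least 300 bp wide in every library, 14 epithelial genes had more gained and 1 had more lost peaks.

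The contractile list leaned the other way. Of 26 actin, adhesion and serum response genes, 23 were found by name, of which 10 had more lost and 3 had more gained peaks. They lost 34.5% of their day 1 peaks and gained 28.2% of their day 3 peaks, beside 27.9% and 32.0% over all peaks. This lean was not particular to them. The matrix list below had 35.0% and 28.6%, and the mesenchymal list 34.4% and 31.8%. *Vcl*, the vinculin gene of focal adhesions, lost 4 peaks of 200 to 463 bp, all of them present on day 0, and gained none. *Mrtfb*, which encodes a coactivator of serum response factor, lost 7 peaks and gained 4, and *Mrtfa*, its paralogue, lost 3 and gained 1. *Tpm2*, a tropomyosin gene, lost its promoter peak of 346 bp, present on day 0 and on none of the later days. The exceptions were *Tagln*, *Ccn1* and *Itga5*. *Tagln*, a smooth muscle actin-binding protein gene, gained a promoter peak of 485 bp that was present on days 0, 6 and 9, and a second of 266 bp. *Ccn1*, a Yap target, gained 5 peaks and lost 3. With peaks at least 300 bp wide in every library, 5 contractile genes had more lost and 4 had more gained peaks, so the excess was not seen among these wider peaks.

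**Figure D5:**
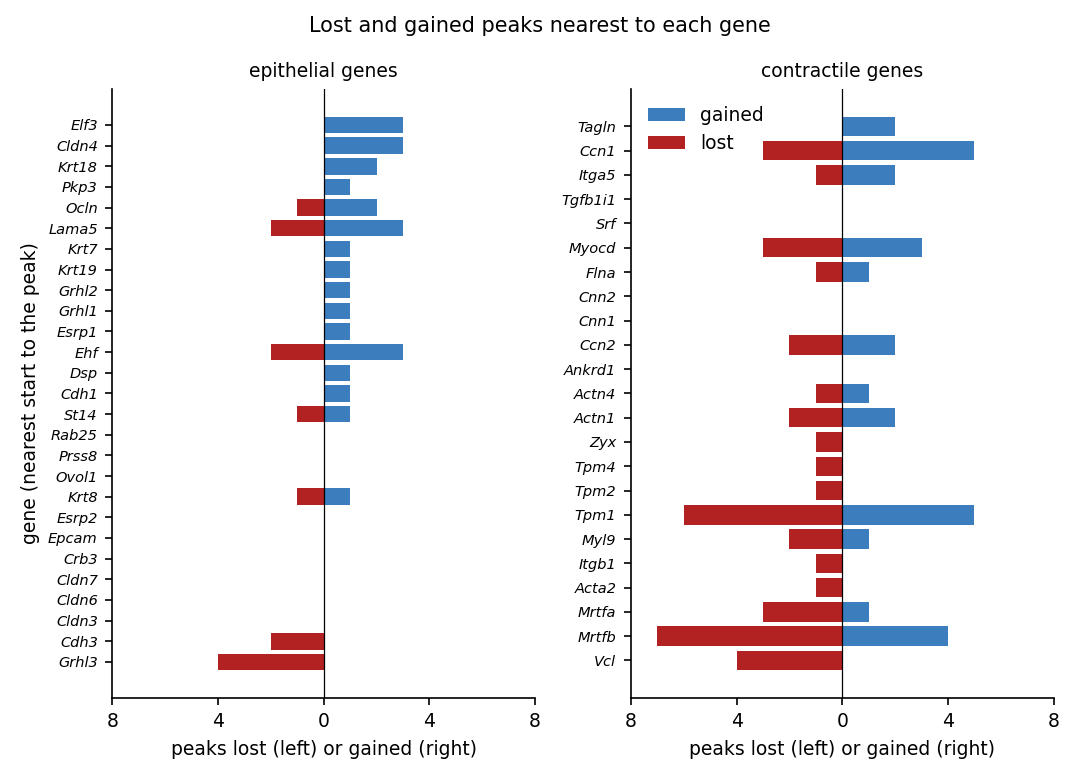
Peaks lost (red, left) and gained (blue, right) between day 1 and day 3 with their nearest start at each epithelial (left panel) or contractile (right panel) gene, as counts of peaks. The epithelial panel draws 27 of the 28 genes, of which 14 lean right and 2 lean left, and in the contractile panel 3 lean right and 10 lean left.

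Pluripotency genes gave no single direction. Of 33 members, 14 had more gained and 8 more lost peaks, with 49 gained and 44 lost peaks in all. These were 41.9% of their day 3 peaks and 38.6% of their day 1 peaks, both above the 32.0% and 27.9% over all peaks. *Etv5* (5 lost, 1 gained) and *Klf5* (5 lost, 2 gained) leaned to loss. *Esrrb* lost 2 narrow peaks and gained none. At *Sox2* the day 1 library had a peak of 253 bp 614 bp downstream of the start, inside this single-exon gene, that was called in no other library. The cassette also carries *Sox2*, and its reads cannot be told apart from those of the endogenous gene in a peak file. *Sox2* also gained 4 distal peaks, of which the 1 at 74267 bp upstream was shared with ESCs. *Nanog* gained 3 peaks, all present on day 0, and lost 2. *Pou5f1*, the Oct4 gene, gained a peak of 230 bp shared with ESCs, 3621 bp downstream of its first start and near a downstream annotated start, while no peak was called at the first start on either day. The cassette carries *Pou5f1* too, so wherever this peak covers exon sequence the limit given for *Sox2* holds here as well. *Fgf4*, *Lin28b* and *Nr5a2* gained promoter peaks of 200, 200 and 228 bp, and none of these was seen in ESCs.

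Mesenchymal regulators and matrix genes were split by gene count, although their lost shares, given above, were near that of the contractile list. Of 28 mesenchymal genes, 9 had more gained and 9 more lost peaks. *Zeb1*, the E-box repressor gene, lost 7 peaks and gained 3, and its promoter peak was among those lost. Its paralogue *Zeb2* gained 8 and lost 6. *Snai1* lost 2 and gained 1, and *Snai2* had neither. *Twist1* gained 3 and lost 2. *Cdh2*, the N-cadherin gene, lost 7 and gained 4. *Meox1*, *Meox2* and *Osr1* gained promoter peaks and *Cdh11* lost one. Of 25 matrix genes, 6 had more gained and 8 more lost peaks. *Fbn2*, a fibrillin gene, lost 6 peaks and gained none, *Col5a2* lost 5 and gained none, and *Col6a1* gained 4 and lost 1. *Col3a1* gained a promoter peak of 504 bp, which was present on day 0 and in no other library but day 3. Peaks at *Col1a1*, the locus of the cassette, numbered 2 lost and 0 gained.

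Over 12 genes of AP-1 subunits and their partners, 52 day 3 peaks were kept, 13 were gained and 7 day 1 peaks were lost. The lost share was 11.7% and the gained share 20.0%, against 27.9% and 32.0% of all peaks, and 11 of the 12 had a promoter peak on both days. *Mafk*, a small Maf gene, gained 3 peaks, and *Fos* and *Fosl2* each had 2 more gained than lost. In the list of Runx, Tead, Yap and Cebp genes, 4 of 14 had more gained and 5 more lost peaks. *Runx1*, a haematopoietic and mesenchymal factor gene, gained 10 peaks and lost 4, and *Tead4* gained 3 and lost none. Of 21 Wnt and BMP genes, 9 had more gained and 5 more lost peaks. *Tcf7l1*, a Wnt repressor gene, and *Dkk1*, a secreted Wnt inhibitor gene, each gained 4 and lost none, and *Dkk1* gained a promoter peak shared with day 6 and ESCs. *Bmp4* gained 3 peaks, all present on day 6. Of 12 p53 and senescence genes, 4 had more gained and 3 more lost peaks. *Mdm2*, the p53 ubiquitin ligase gene, gained 3 peaks seen in no other library. Of the 9 regulators of the study's network, 4 had more gained and 2 more lost, with *Gli2*, a Hedgehog effector gene, at 9 lost and 5 gained. Of the 10 cell-surface and enzyme markers of reprogramming stages, 5 had more gained and 2 more lost.

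Most fibroblast markers had a promoter peak on both days, and most markers of other cell types did not. Over all 21911 genes the share with one on both days was 53.0%. Of 8 fibroblast markers, 6 had a promoter peak on both days, *Col3a1* on day 3 alone, and *Prrx1* on neither. Of 8 ESC markers, *Dppa5a* had one on both days, *Sox2* on day 1 alone, *Pou5f1* and *Fgf4* on day 3 alone, and 4 had none. The *Sox2* and *Pou5f1* peaks are those described above, inside the gene and near a downstream start. The cassette carries both genes, so these peaks cannot be read as changes at the endogenous promoters. Of 6 epithelial markers, *Grhl2* had one on both days, *Krt8* on day 1 alone and *Esrp1* on day 3 alone. No endothelial or muscle marker had one on both days, and *Kdr* had one on day 3. This *Kdr* peak of 314 bp was called in each library except day 1. Of 5 blood markers 1 had one on both days (*Cd68*), and of 4 neural markers 1 (*Tubb3*). In these lists 4 of 8 fibroblast, 4 of 8 ESC, 4 of 6 epithelial, 2 of 5 endothelial, 2 of 4 muscle, 1 of 4 neural and 0 of 5 blood markers had more gained than lost peaks. More lost than gained peaks were found for 1 fibroblast, 1 ESC, 1 endothelial and 1 blood marker.

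Over all genes, the largest excess of gained peaks was at *Dclk2*, a doublecortin-like kinase gene, with 11 gained, 0 lost and 5 kept peaks. The 11 were 205 to 504 bp wide and lay 5507 to 146049 bp from its start. Of them, 4 were already called on day 2 and 8 were called on day 6. *Nuak1*, an AMPK-related kinase gene, gained 9 peaks, 47877 to 228194 bp from its start, and lost none. Of the 9, 0 were called on day 2 and 1 on day 6. *Npvf*, a neuropeptide precursor gene, gained 12 peaks and lost 2, *Tgif1*, a homeobox repressor of TGF-beta signalling, gained 10 and lost 2, and *Irs2*, an insulin receptor substrate gene, gained 13 and lost 6. *Sox11*, a SoxC factor gene, gained 10 peaks and lost 3. Among the gained peaks was a promoter peak of 535 bp, which was called in each library except day 1. *Bcor*, a corepressor gene, gained 10 and lost 3, and 6 of the 10 were called on day 2 and 7 on day 6. The gained peaks of these genes could be far away too. They lay up to 348530 bp from the start of *Npvf*, 338053 bp for *Tgif1* and 354947 bp for *Irs2*. For *Sox11* the largest distance was 598923 bp and for *Bcor* 365059 bp. *Dbx1*, *Naaladl2* and *Nufip1* completed the first 10.

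By nearest start, the largest excess of lost peaks was at *Slit2*, *Fat4* and *Fam49a*, each with 8 more lost than gained. These peaks could be far away: 52516 to 775082 bp from the start of *Slit2*, 58966 to 556501 bp for *Fat4* and 7346 to 287507 bp for *Fam49a*. *Slit2* and *Slit3* encode ligands of Robo receptors. The 8 peaks lost at *Slit2*, 200 to 387 bp wide, were called in none of the other 5 libraries, so they were found on day 1 alone. *Slit3* lost 8 peaks and gained 1. *Fat4*, an atypical cadherin gene, lost 9 narrow peaks of 200 to 322 bp, none of which was called on day 0. *Zfp608* lost 14 peaks and gained 7, and lost its promoter call. *Cd47*, the "don't eat me" surface protein gene, lost 9 and gained 2, and *Pappa2*, a protease of IGF-binding proteins, lost 9 and gained 2. *Sorl1*, *Sncaip* and *1810046K07Rik* each had 7 more lost than gained peaks. At these 10 genes the median widths of the lost peaks were 200 to 262 bp, and at the 10 gained genes 213 to 353 bp.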

How the data were processed

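Each library was made from 50000 cells, per the labels. The deposited files are peak lists with a chromosome, a start and an end per peak in mm10 and no score or read number, so peak width in bp is the one other measure they hold. The authors trimmed reads to 50 bp with Trimmomatic, aligned them with Bowtie2, marked duplicates with Picard, downsampled the libraries to a common depth and called peaks per library with MACS2. That depth is not given in the sources used here. A region near the calling threshold can therefore be listed on one day and not on the other with little difference in reads, and the width of a peak was used to show where this matters.

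Peaks were matched by an overlap of 1 bp. Exact (Clopper-Pearson) 95% intervals are given for shares and Newcombe intervals for differences of shares, and they cover counting error only. Genes and starts are from GENCODE M21 (GRCm38, 141767 transcripts), sequences from the GRCm38 genome, and motifs were matched on both strands in the central 200 bp. GGGNGTGG and CACGTG, like the other letters given, may overlap other motifs. The grid took 1 window every 20000 bp. Each peak was assigned to 1 gene, by the nearest protein-coding start. Regions were named as the 6 widest lost and gained peaks and the 4 kept peaks with the largest width ratio in each direction. Genes were named as the 10 with the largest excess in each direction, and the 4 largest excesses and the members with a changed promoter peak of each list. Other members, among them *Nanog*, *Snai1*, *Snai2*, *Twist1*, *Col1a1* and *Itga5*, were picked with their values known. Some items that the rule names are not reported here. Members and lists were chosen with earlier results of these data known. The overlap code was tested on simulated data and against bedtools 2.31.1. Python 3.11.15, numpy 2.4.6, scipy 1.17.1 and matplotlib 3.10.9 were used. Other overlaps, width limits, start distances and motif windows were tried.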

Additional observations from a re-analysis of the deposited data

How the results depend on the processing

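The gained share stayed above the lost share under each alternative tried. The octamer difference, whose interval included 0 as reported, took the other sign in 3 settings (-0.02 points with a peak within 500 bp counted as kept, -0.01 over 1000 bp from a TSS and -0.24 under 300 bp), again with 0 inside the interval, and no other motif difference put through these settings changed sign. In all, 70 of 112 values over 18 results moved by less than their counting interval (counts of genes by less than 1.5 times) and 42 by more. With a 50% reciprocal overlap, 48.0% of day 1 peaks were lost and 50.6% of day 3 peaks gained. In that setting gained peaks with a day 2 peak were 17.2%, lost peaks with a day 0 peak 20.9%, gained peaks with a day 6 peak 28.6%, TSS-proximal peaks 22.7% (lost) and 22.3% (gained), the AP-1 difference -1.11 points and the Snail/Zeb difference 2.45 points. With a peak within 500 bp counted as kept, these were 22.8% and 26.6%, then 20.7%, 42.8%, 44.6%, 13.6% and 15.3%, and lost peaks without a day 2 peak were 82.2%. With peaks of at least 300 bp in every library they were 25.1% and 29.9%, then 21.1%, 37.7%, 41.8%, 21.0% and 23.1%, with 82.0% of lost peaks absent on day 2, an AP-1 difference of -5.00 points, a Snail/Zeb difference of 4.50 points (3.57 to 5.42) and an octamer difference of 0.71 points (0.13 to 1.28), whose interval then left 0 out. With the same number of widest peaks on both days, 29.2% were lost and 30.1% gained, 82.5% of lost peaks were absent on day 2, 19.9% of gained peaks were present then and 41.0% were present on day 6. A TSS within 2500 bp was found for 24.1% of lost and 26.3% of gained peaks, and a protein-coding TSS within 1000 bp for 13.4% and 14.2%. In a 300-bp window the AP-1 difference was -3.80 points and the Snail/Zeb difference 6.31 points, and among peaks under 300 bp they were -1.40 and 3.29 points. The Klf difference had an interval without 0 in some settings, such as 1.04 points (0.26 to 1.80) with a peak within 500 bp counted as kept. The Snail/Zeb and list counts were put through these settings after the data were seen. Epithelial genes with more gained peaks numbered 14 to 15 and contractile genes with more lost peaks 5 to 11. No paired analysis was possible because no group holds more than 1 library, and no replicate could be left out.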

Other observations

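The 500-kb windows named here are among those with the largest excess of gained or of lost peaks. Each holds only a small part of the 15376 gained and 12761 lost peaks. Over all peaks, 32.0% of those on day 3 were gained and 27.9% of those on day 1 were lost. The window with the largest excess of gained peaks, chr8:84500001-85000000, had 21 gained, 5 lost and 29 kept peaks and holds *Junb*, *Klf1*, *Nfix* and *Calr*. The next, chr11:88500001-89000000, had 13 gained, 1 lost and 18 kept peaks and holds *Msi2*, an RNA-binding protein gene, and *Akap1*. A window on chromosome 1 with *Elf3* and *Lgr6* had 18 gained and 8 lost peaks. The window with *Sgk1*, a serum-induced kinase gene, had 10 lost, 1 gained and 4 kept peaks.

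A small set of peaks was called in each library except day 3 or except day 1. There were 74 lost peaks of the first kind and 148 gained peaks of the second, with median widths of 291 and 381 bp. The lost ones lay among others at *Dsn1*, *Itpk1*, *Slc36a4* and *Kmt2a*, and the gained ones at *Cdh1*, *Zfp184*, *Plekhg3*, *Kank4* and *Ryr2*.

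Of the 66 candidate reprogramming-inducible enhancers that the study lists, 36 had a peak on both days, 3 on day 1 alone, 5 on day 3 alone and 22 on neither. Over all peaks, 27.9% of those on day 1 were lost and 32.0% of those on day 3 were gained. The elements with a peak on day 3 alone were assigned to *Soga3*, *Rfx4*, *Galr2*, *Cnpy1* and *Shroom3*, and those with a peak on day 1 alone to *Acp6*, *Gipc2* and *Syce2*. The element at *Rfx4* also had a peak on days 2, 6 and 9.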
